A study of Homo sapiens with 8 samples.

Results

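Here 10 genes were followed that are read as targets of beta-catenin or as markers of the stem cells at the base of the intestinal crypt, namely LGR5, RNF43, ZNRF3, AXIN2, NKD1, LEF1, ASCL2, MYC, EPHB2 and EPHB3. They were read from every non-control probe of the arrays whose gene name equals one of the 10 symbols, which gave 15 probes out of 50599. RNA came from DLD1 cells, an established human colorectal cancer line, transfected with a control siRNA (siCONT) or with 1 of 2 siRNAs against UHRF1 (siUHRF1-1, siUHRF1-2). After 48 h the cells received ethanol (mock) or 300 nM trichostatin A (TSA), a histone deacetylase inhibitor, for 24 h more. This gave 4 groups of 2 single-colour arrays: siCONT mock, siUHRF1 mock, siCONT TSA and siUHRF1 TSA. A siUHRF1 group held 1 array of each siRNA, so its 2 replicates are 2 different siRNAs. UHRF1 binds hemimethylated CpG after replication and brings in DNMT1, which restores the methylation of the daughter strand, and the study asked what its loss and deacetylase inhibition do to expression alone and together.

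Wnt ligands bind Frizzled receptors with LRP5 or LRP6, and this stops a complex of APC, AXIN, GSK3B and CK1 from marking beta-catenin for destruction. Stabilised beta-catenin joins TCF and LEF factors in the nucleus and switches on target genes, many of which feed back on the pathway. In the colon this signal is strongest at the crypt base, where it maintains LGR5-positive stem cells. DLD1 cells carry a truncated APC, so that the pathway is active without ligand.

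All 10 genes had a probe well above background on all 8 arrays, and 14 of the 15 probes were so. The exception was a second MYC probe, which was above background on no array and is given no level. A level is the log2 of a probe's signal minus the 75th percentile of its array, so that 0 is a signal at that percentile, and levels were compared only within a probe. Where a gene had several probes, the brightest stood for it. A gene was called changed where limma's test gave an adjusted p under 0.05 over all probes tested and a difference of at least 2-fold.

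Between 43.3% and 48.0% of all probes were above background on an array. UHRF1 itself stood at 31.9% and 24.8% of the siCONT mean with siUHRF1-1 and siUHRF1-2 in mock, and at 16.7% and 11.1% in TSA. The siCONT arrays of an agent differed little (SD of the log2 difference 0.164 in mock and 0.156 in TSA), while the 2 UHRF1 siRNAs differed by 0.489 and 0.422. A siCONT group was therefore counted as 1 sample: its mean is given with no SD, and calls are set beside a fit in which its arrays were averaged (6 samples, the averaged fit). The residual spread of that fit comes only from the siUHRF1 groups, so from differences between the 2 siRNAs. Its p-values for TSA in siCONT cells thus do not measure how well that difference repeats. Neither labels nor methods say that arrays came from separate cultures, so p-values measure the spread between these arrays only. The 5 epithelial markers EPCAM, CDH1, KRT8, KRT18 and KRT19 were above background on all arrays and none was called in any comparison. Of 10 markers of other cell types, PTPRC, CD3E, PECAM1 and COL3A1 were above background on no array. The summed signal of the 10 lay, as log2, between 0.89 and 1.06 in siCONT mock, 1.03 and 1.07 in siUHRF1 mock, 1.65 and 1.70 in siCONT TSA, and 2.63 and 2.87 in siUHRF1 TSA. COL1A1 and VWF led that list, at least 6.66-fold and 15.0-fold higher in siUHRF1 TSA than in siCONT mock. These are bounds, against the lowest signal above background, because neither probe was above background on a siCONT mock array. The part of these markers in the differences of the 10 genes was not tested. Mock arrays lay in row 1 of the slide and TSA arrays in row 2, so the row and TSA cannot be told apart.

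Promoter windows from the RefSeq promoter table (GRCh38.p14) were used for only 4 of the 10 genes: EPHB2, EPHB3, RNF43 and LEF1. Their sequences are shown because UHRF1 acts at methylated CpG, because the first 3 were called lower with TSA and because LEF1 was not. Each line gives the 250 bases before an annotated start, 5′ to 3′ on the gene's strand, with every CpG in capitals.
EPHB2: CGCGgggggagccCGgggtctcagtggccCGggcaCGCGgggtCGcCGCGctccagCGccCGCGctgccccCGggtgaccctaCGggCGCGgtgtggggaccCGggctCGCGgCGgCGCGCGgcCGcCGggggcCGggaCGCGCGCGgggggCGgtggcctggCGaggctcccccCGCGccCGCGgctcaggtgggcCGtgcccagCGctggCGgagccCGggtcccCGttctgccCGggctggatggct
EPHB3: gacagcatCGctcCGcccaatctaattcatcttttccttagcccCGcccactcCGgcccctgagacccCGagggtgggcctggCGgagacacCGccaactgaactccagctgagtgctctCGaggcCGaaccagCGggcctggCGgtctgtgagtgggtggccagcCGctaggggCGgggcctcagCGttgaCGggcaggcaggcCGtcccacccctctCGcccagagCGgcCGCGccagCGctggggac
RNF43: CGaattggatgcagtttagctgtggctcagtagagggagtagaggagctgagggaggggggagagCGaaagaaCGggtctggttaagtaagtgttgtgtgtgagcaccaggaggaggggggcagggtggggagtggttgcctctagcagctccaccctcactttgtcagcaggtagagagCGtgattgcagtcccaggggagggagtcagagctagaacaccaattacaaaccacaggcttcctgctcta
LEF1: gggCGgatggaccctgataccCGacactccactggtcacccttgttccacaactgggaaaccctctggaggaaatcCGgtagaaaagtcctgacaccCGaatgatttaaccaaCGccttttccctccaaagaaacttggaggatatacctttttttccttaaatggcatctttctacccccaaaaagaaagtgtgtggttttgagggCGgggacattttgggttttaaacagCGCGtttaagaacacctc
The windows were chr1:22710588-22710837 on the plus strand for EPHB2, chr3:184561535-184561784 on the plus strand for EPHB3, chr17:58417535-58417784 on the minus strand for RNF43 and chr4:108166302-108166551 on the minus strand for LEF1. EPHB2 held 42 CpG and 84.8% G or C, and its ratio of observed to expected CpG was 0.943. EPHB3 held 21 CpG with a ratio of 0.688, and LEF1 held 8 with a ratio of 0.568. RNF43 held 4 with a ratio of 0.231, and at its other listed start (chr17:58402722-58402971) the window held 0. Over all 35116 promoters of the table the median was 11 CpG and the median ratio 0.558. The printed windows of the 3 genes called lower ranged from the 26.1 to the 86.3 percentile of that ratio, and the other RNF43 start lay at the bottom of it. No window of these 4 genes held CTTTGAT or CTTTGTT on either strand, which are some of the forms of TCF and LEF sites. Of all promoters of this length, 6.60% held either. Other forms of the site were not searched. No window of these 4 genes held CACGTG, the E-box bound by MYC, which 6.34% of all promoters held. No window is given for the other members, MYC itself among them. The absence of these sites therefore covers these 4 genes only and says nothing of the 10 as a set.

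Most calls among the 10 genes came with TSA. In siCONT cells TSA lowered ASCL2, RNF43, EPHB3 and EPHB2 by 2.31-fold to 3.09-fold, and limma called no member higher. The other 6 genes did not pass. Of the 10 genes, 4 were called lower where 8.21% of all 23239 probes tested were, and 0 were called higher where 10.4% of all probes were. The median of the 10 was -0.74 on the log2 scale, beside -0.11 over all probes. The averaged fit called 1.56% of all probes and none of the 10, of which 3 had an unadjusted p under 0.05. The methods' t-test called the same 4 with its adjusted p, and at its unadjusted threshold it called 5, the other being LGR5, which was higher.

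**Figure D1:**
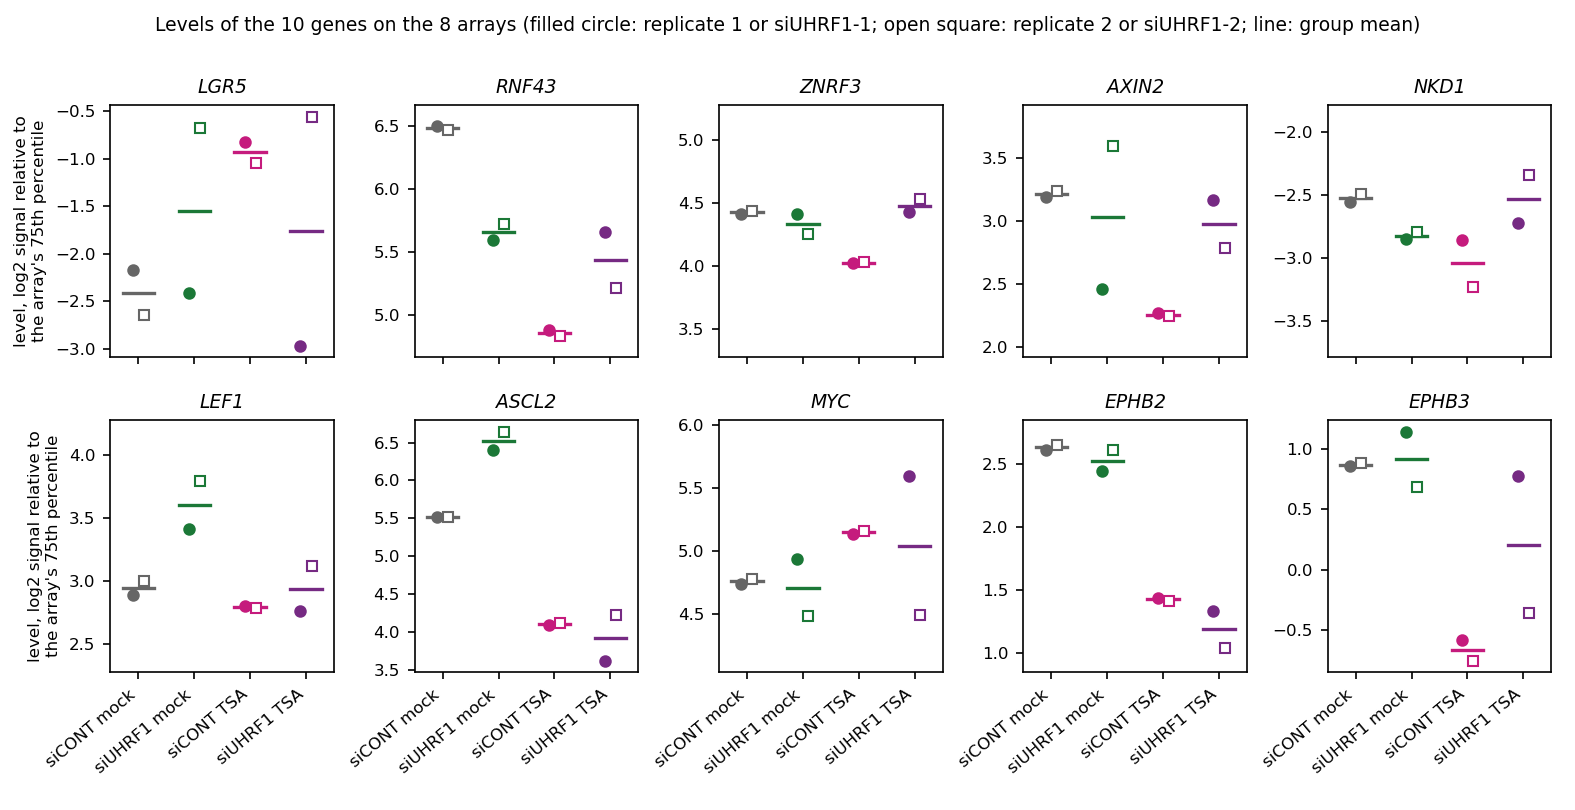
Levels of the 10 genes on the 8 arrays, as log2 signal relative to the array's 75th percentile (y axis, its own range in each panel), by group (x axis). Circles are replicate 1 or siUHRF1-1, squares replicate 2 or siUHRF1-2, and lines group means. ASCL2 and EPHB2 lay lower on all 4 TSA arrays than on all 4 mock arrays, while for LGR5 the 2 UHRF1 siRNAs lay 1.74 apart in mock and 2.41 apart in TSA.

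LGR5 is the R-spondin receptor that marks crypt stem cells. Its probe (hg19 chr12:71978325-71978384) stood at -2.17 and -2.65 on the siCONT mock arrays, at -2.42 with siUHRF1-1 and -0.68 with siUHRF1-2 in mock, at -0.82 and -1.04 on the siCONT TSA arrays, and at -2.97 and -0.56 with siUHRF1-1 and siUHRF1-2 in TSA. The siUHRF1-2 arrays were high with either agent, and the siUHRF1-1 arrays were low. Both siCONT TSA arrays lay above both siCONT mock arrays, a difference of 1.48 (95% confidence interval -0.63 to 3.59) with an adjusted p of 0.213 in limma. The methods' t-test gave this difference a p of 0.0302 unadjusted and 0.0553 adjusted. No comparison of LGR5 passed in limma, and with UHRF1 depletion its direction followed the siRNA: in TSA it differed from the siCONT mean by -2.04 with siUHRF1-1 and by 0.37 with siUHRF1-2. Over the 6 arrays outside siCONT mock, the genes whose differences from the siCONT mock mean were nearest to those of LGR5 were ODAM, PER3 and TSPAN8, with root mean square differences of 0.323, 0.387 and 0.423 on the log2 scale, where the profile of LGR5 itself had 1.36.

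RNF43 and ZNRF3 are membrane ubiquitin ligases that remove Frizzled from the cell surface, and R-spondin bound to LGR5 restrains them. RNF43 (hg19 chr17:56431063-56431122) stood at 6.50 and 6.48 in siCONT mock, at 5.60 and 5.72 with siUHRF1-1 and siUHRF1-2 in mock, at 4.89 and 4.84 in siCONT TSA, and at 5.67 and 5.22 with siUHRF1-1 and siUHRF1-2 in TSA. It was highest in siCONT mock and lowest in siCONT TSA, the siUHRF1 arrays lay between, and no array of these 3 sets overlapped another. TSA lowered RNF43 in siCONT cells by 3.09-fold (log2 difference -1.63, SE 0.17, adjusted p = 0.00142 in limma, 0.0969 in the averaged fit). UHRF1 depletion in mock gave -0.83 (adjusted p = 0.0401 in limma), which is under 2-fold. In UHRF1-depleted cells TSA made a difference of -0.22 (95% confidence interval -0.63 to 0.19, and -0.86 to 0.42 in the averaged fit). The siRNAs had opposite signs, 0.07 and -0.51. Against siCONT mock, siUHRF1 TSA was 2.06-fold lower (log2 difference -1.05, adjusted p = 0.00387 in limma, 0.0813 in the averaged fit). That value lies near the 2-fold limit, and it was -0.78 with quantile normalization and -0.80 with the percentile taken over detected probes.

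The change of RNF43 with TSA was set between siUHRF1 and siCONT cells. This interaction, which is the change with TSA in siUHRF1 cells minus that in siCONT cells, was 1.41 (SE 0.24, adjusted p = 0.0332 in limma), and RNF43 was the 1 gene of the 10 called in this test. The median of the 10 was 0.25, beside 0.06 over all probes. Over all 24589 probes, 2.83% were called higher and 2.07% lower in the interaction. The averaged fit of limma called 0% of all probes, with an adjusted p of 0.488 for RNF43, and 1 of the 10 genes had an unadjusted p under 0.05 there. Without any 1 of the 4 siCONT arrays the interaction of RNF43 no longer passed, with estimates from 1.38 to 1.43. Calls over all probes fell in each of these fits too, so the loss is not particular to RNF43. RNF43 also did not pass in limma with the replicate block (adjusted p = 0.0542), with median scaling (1.06, adjusted p = 0.0554) or with no filter on dim probes (adjusted p = 0.0856). The block gives all same-numbered arrays a shared shift. It thus ties the arrays of a siRNA across agents, but also siCONT arrays, whose numbers do not pair them.

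ZNRF3 had 2 probes, which did not move together. The brighter one (hg19 chr22:29449612-29449671) stood at 4.41 and 4.44 in siCONT mock, at 4.41 and 4.25 with siUHRF1-1 and siUHRF1-2 in mock, at 4.02 and 4.03 in siCONT TSA, and at 4.43 and 4.53 with siUHRF1-1 and siUHRF1-2 in TSA. The siCONT TSA arrays were its lowest, with a log2 difference from siCONT mock of -0.40 (adjusted p = 0.0368 in limma, under 2-fold). The other probe (chr22:29452861-29452920) differed by 0.50 in the same comparison (adjusted p = 0.0329 in limma, under 2-fold), so the probes had opposite signs. It also lay above both siCONT mock arrays on all 6 other arrays, by 0.65 to 0.80 with the siRNAs in mock. Neither probe was called in any comparison.

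AXIN2 is a scaffold of the destruction complex and a widely read target of beta-catenin. Its brighter probe (hg19 chr17:63554388-63554447) stood at 3.19 and 3.24 in siCONT mock, at 2.46 with siUHRF1-1 and 3.60 with siUHRF1-2 in mock, at 2.27 and 2.24 in siCONT TSA, and at 3.17 and 2.79 with siUHRF1-1 and siUHRF1-2 in TSA. Both siCONT TSA arrays were low, with a log2 difference of -0.96 (95% confidence interval -1.82 to -0.09, adjusted p = 0.0758 in limma). In the averaged fit the interval was -2.47 to 0.56 (adjusted p = 0.422 in limma). The second AXIN2 probe (chr17:63525389-63525448) stood at 2.66 and 2.69 in siCONT mock, at 3.27 and 2.56 with siUHRF1-1 and siUHRF1-2 in mock, at 2.84 and 2.87 in siCONT TSA, and at 2.45 and 2.29 with siUHRF1-1 and siUHRF1-2 in TSA. It differed by 0.18 with TSA in siCONT cells. Against the siCONT mean in mock, siUHRF1-1 gave -0.75 by the first AXIN2 probe and 0.59 by the second, and siUHRF1-2 gave 0.38 and -0.11. The 2 probes thus had opposite signs on the siUHRF1 mock and siCONT TSA arrays, and both lay below the siCONT mock mean on the siUHRF1 TSA arrays. No comparison of either probe was called. The nearest profiles to the first AXIN2 probe were those of the probes named SNORA2A, STAC3 and THC2633659, with root mean square differences of 0.112, 0.136 and 0.149, where the profile of AXIN2 itself had 0.673.

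**Figure D2:**
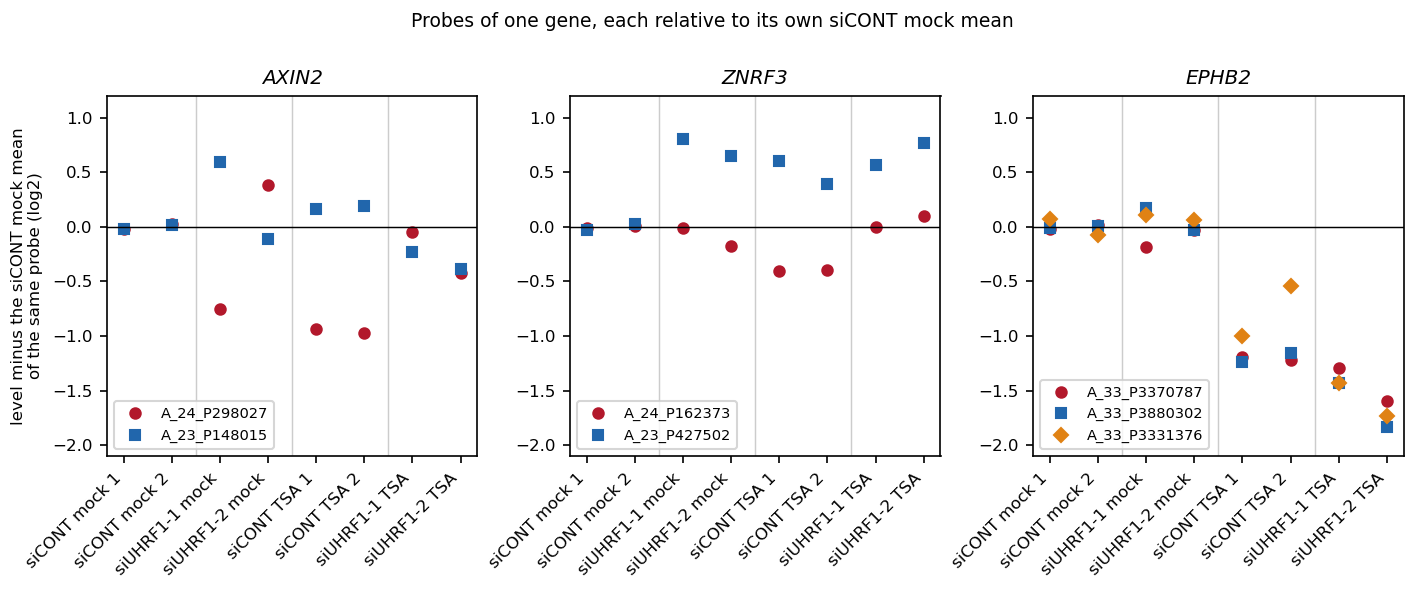
Probes of AXIN2, ZNRF3 and EPHB2 on the 8 arrays (x axis), each as its level minus its own siCONT mock mean (y axis, log2). The 3 EPHB2 probes lay below 0 on all 4 TSA arrays, while the 2 probes of AXIN2 and the 2 of ZNRF3 had opposite signs on both siCONT TSA arrays.

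NKD1 is a feedback inhibitor that binds Dishevelled. It stood at -2.56 and -2.49 in siCONT mock, at -2.85 and -2.80 with siUHRF1-1 and siUHRF1-2 in mock, at -2.85 and -3.24 in siCONT TSA, and at -2.72 and -2.34 with siUHRF1-1 and siUHRF1-2 in TSA (hg19 chr16:50667885-50667944). The siCONT TSA arrays and the siUHRF1 mock arrays lay below both siCONT mock arrays. No difference of NKD1 passed: that with TSA in siCONT cells was -0.52 (adjusted p = 0.0679 in limma).

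LEF1 is a DNA-binding partner of beta-catenin and is itself a target. It stood at 2.89 and 3.0 in siCONT mock, at 3.42 and 3.80 with siUHRF1-1 and siUHRF1-2 in mock, at 2.81 and 2.79 in siCONT TSA, and at 2.76 and 3.12 with siUHRF1-1 and siUHRF1-2 in TSA (hg19 chr4:108968746-108968805). Its 2 siUHRF1 mock arrays were its highest. The log2 difference with depletion in mock was 0.66 (adjusted p = 0.0751 in limma), and the one from siUHRF1 mock to siUHRF1 TSA was -0.67 (adjusted p = 0.0305 in limma, 0.138 in the averaged fit), which is under 2-fold. Between siUHRF1 TSA and siCONT mock it was -0.01 (95% confidence interval -0.45 to 0.44, and -0.82 to 0.81 in the averaged fit).

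ASCL2, a transcription factor of crypt stem cells, had the largest difference called among the 10. It stood at 5.51 and 5.52 in siCONT mock, at 6.40 and 6.64 with siUHRF1-1 and siUHRF1-2 in mock, at 4.09 and 4.12 in siCONT TSA, and at 3.62 and 4.23 with siUHRF1-1 and siUHRF1-2 in TSA (hg19 chr11:2289959-2290018). Both siUHRF1 mock arrays (mean 6.52 ± 0.17 SD, n = 2 siRNAs) lay above both siCONT mock arrays, and all 4 TSA arrays lay below all 4 mock arrays. UHRF1 depletion in mock raised ASCL2 by 2.00-fold (log2 difference 1.00, SE 0.21, adjusted p = 0.0442 in limma, 0.512 in the averaged fit). That value sits at the 2-fold limit, and leaving out any 1 siCONT array, or the siUHRF1-2 mock array, ended the call (log2 differences 0.88 to 1.01). Without a siCONT array the calls over all probes fell too in this comparison.

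With TSA the direction of ASCL2 was the reverse. TSA lowered it in siCONT cells by 2.66-fold (log2 difference -1.41, adjusted p = 0.00452 in limma, 0.154 in the averaged fit) and in UHRF1-depleted cells by 6.04-fold (log2 difference -2.60, adjusted p = 0.000532 in limma, 0.00662 in the averaged fit). Each siRNA gave the fall, with differences of -2.78 for siUHRF1-1 and -2.41 for siUHRF1-2 against the same siRNA in mock. The interaction was -1.19 (adjusted p = 0.0715 in limma), so the larger fall in depleted cells was not called as a difference between them. It was called with median scaling (-1.53, adjusted p = 0.0422 in limma), with the normexp background (-1.30, adjusted p = 0.0265) and without the siUHRF1-2 TSA array (-1.49, adjusted p = 0.0264), and in the averaged fit its adjusted p was 0.597. Between siUHRF1 TSA and siCONT TSA the difference was -0.18 (95% confidence interval -0.70 to 0.34, and -1.08 to 0.72 in the averaged fit). The siRNAs were at -0.49 and 0.12. Against siCONT mock, siUHRF1 TSA was 3.02-fold lower (adjusted p = 0.00196 in limma, 0.0421 in the averaged fit).

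MYC drives cell growth and is a classic beta-catenin target. Its probe with 10 spots an array stood at 4.74 and 4.79 in siCONT mock, at 4.94 and 4.48 with siUHRF1-1 and siUHRF1-2 in mock, at 5.14 and 5.16 in siCONT TSA, and at 5.60 and 4.49 with siUHRF1-1 and siUHRF1-2 in TSA. The siUHRF1-1 arrays lay above the siCONT arrays of the same agent and the siUHRF1-2 arrays below them. The 10 spots had a coefficient of variation of 1.71% to 4.08% on an array, which is the precision of repeated spots and not a spread between samples. No comparison of MYC passed, and the log2 difference with TSA in siCONT cells was 0.39 (95% confidence interval -0.48 to 1.25).

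EPHB2 and EPHB3 are receptors for ephrin-B ligands that keep cells in position along the crypt. EPHB2 (hg19 chr1:23240041-23240100) stood at 2.61 and 2.66 in siCONT mock, at 2.45 and 2.61 with siUHRF1-1 and siUHRF1-2 in mock, at 1.44 and 1.42 in siCONT TSA, and at 1.34 and 1.04 with siUHRF1-1 and siUHRF1-2 in TSA. All TSA arrays lay below all mock arrays, by more than the spread within either set. TSA lowered EPHB2 by 2.31-fold in siCONT cells (log2 difference -1.21, adjusted p = 0.00205 in limma, 0.138 in the averaged fit). In UHRF1-depleted cells it fell by 2.53-fold (log2 difference -1.34, adjusted p = 0.00115 in limma, 0.0200 in the averaged fit). The interaction was -0.13 (95% confidence interval -0.62 to 0.35, and -1.15 to 0.88 in the averaged fit). Depletion in mock gave -0.11 (95% confidence interval -0.45 to 0.24, and -0.83 to 0.61 in the averaged fit).

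The other 2 EPHB2 probes moved the same way with TSA. One (chr1:23240664-23240723) differed by -1.19 with TSA in siCONT cells and by -1.71 in depleted cells, and both were called. The other (chr1:23240304-23240363) differed by -0.77 (adjusted p = 0.0237 in limma, under 2-fold) and by -1.67, of which the second was called. With depletion in mock these 2 probes gave 0.07 and 0.09, where the brightest gave -0.11. Their interactions were -0.51 and -0.90 (adjusted p of 0.207 and 0.101 in limma). With depletion in TSA they gave -0.44 and -0.81, where the brightest gave -0.24. The -0.81 had an adjusted p of 0.0377 in limma and 0.309 in the averaged fit, and is under 2-fold. Against siCONT mock, the log2 differences of siUHRF1 TSA were -1.45, -1.63 and -1.58 by the 3 EPHB2 probes, with adjusted p of 0.0314, 0.0278 and 0.0246 in the averaged fit of limma.

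EPHB3 (hg19 chr3:184299825-184299884) stood at 0.86 and 0.88 in siCONT mock, at 1.14 and 0.68 with siUHRF1-1 and siUHRF1-2 in mock, at -0.58 and -0.76 in siCONT TSA, and at 0.77 and -0.36 with siUHRF1-1 and siUHRF1-2 in TSA. It was low on all TSA arrays except that of siUHRF1-1, which overlapped the mock arrays. TSA lowered EPHB3 in siCONT cells by 2.90-fold (log2 difference -1.54, SE 0.37, adjusted p = 0.0201 in limma, 0.247 in the averaged fit). Without any 1 siCONT array it no longer passed (log2 differences -1.63 to -1.45), and calls over all probes fell in these fits too. In depleted cells the difference with TSA was -0.37 with siUHRF1-1 and -1.05 with siUHRF1-2, which as a group did not pass (-0.71, adjusted p = 0.176 in limma). Without the siUHRF1-1 TSA array it was -1.28 (adjusted p = 0.0156 in limma).

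**Figure D3:**
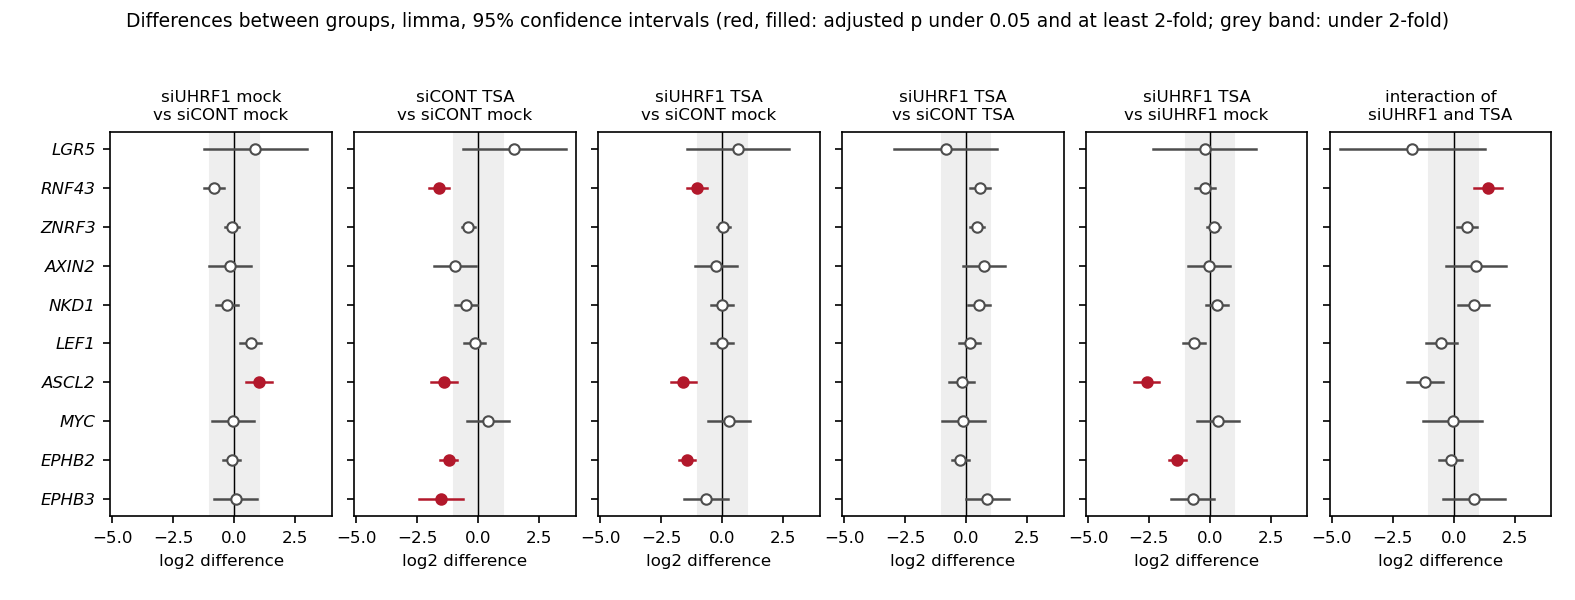
Log2 differences of the 10 genes (x axis) in the 5 comparisons and the interaction, with 95% confidence intervals from limma. Red filled points passed the test at 2-fold or more: 1 gene with depletion in mock, 4 with TSA in siCONT cells, 3 with both, 0 with depletion in TSA, 2 with TSA in depleted cells and 1 in the interaction.

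UHRF1 depletion alone changed few of the 10. In mock, ASCL2 was the 1 gene called higher, where 3.13% of all 22391 probes tested were, and 0 were called lower, where 0.987% were. The median of the 10 was -0.07, beside -0.10 over all probes. The averaged fit called 0.0223% of all probes and none of the 10, of which 2 had an unadjusted p under 0.05. In TSA, depletion gave 0 calls in limma among the 10, where 5.39% of 23844 probes were called higher and 2.87% lower. Of the 10, 3 had an unadjusted p under 0.05, the methods' t-test called 0, and the averaged fit called 0, where it called 0.692% of all probes. In TSA the median of the 10 was 0.30, beside 0.00 over all probes. Without the siUHRF1-2 TSA array EPHB3 was called higher there (log2 difference 1.45, adjusted p = 0.0245 in limma).

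Depletion plus TSA was set against siCONT mock, which the comparisons above of depletion in mock and of TSA in siCONT cells also used as their control. ASCL2, EPHB2 and RNF43 were called lower, 3 of 10, where 11.1% of 23734 probes were, and 0 were called higher, where 14.5% were. The median of the 10 was -0.12, beside -0.14 over all probes. The averaged fit called 15.4% of all probes, and ASCL2 and EPHB2 among the 10. The methods' t-test with its adjusted p called 0 (0.0921 for ASCL2, 0.0525 for EPHB2 and 0.104 for RNF43), and at its unadjusted threshold it called 3. Leaving out an array gave 2 to 4 calls: without the siUHRF1-2 TSA array RNF43 was below 2-fold (-0.82), and without the siUHRF1-1 TSA array EPHB3 was called as well (-1.23). From siUHRF1 mock to siUHRF1 TSA, ASCL2 and EPHB2 were called lower, 2 of 10, where 9.01% of 23912 probes were, and 0 higher, where 11.7% were. The median of the 10 was -0.22, beside -0.04 over all probes. The averaged fit called both as well, where it called 17.6% of all probes. The methods' t-test called 0 there with its adjusted p, which was 0.148 for each of the 2, and at its unadjusted threshold it called 2.

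The direction of several members depended on the siRNA. Against the siCONT mean of the same agent, the 2 siRNAs gave the same sign for 6 of 10 genes in mock and for 6 of 10 in TSA. The exceptions were LGR5, AXIN2, MYC and EPHB3 in mock and LGR5, LEF1, ASCL2 and MYC in TSA. Some of these lay close to 0, such as LGR5 with siUHRF1-1 in mock at -0.0066. From mock to TSA with the same siRNA the signs were alike for 7 of 10, the exceptions being LGR5, RNF43 and AXIN2. With 1 array per siRNA and agent these differences between siRNAs have no replicate check.

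**Figure D4:**
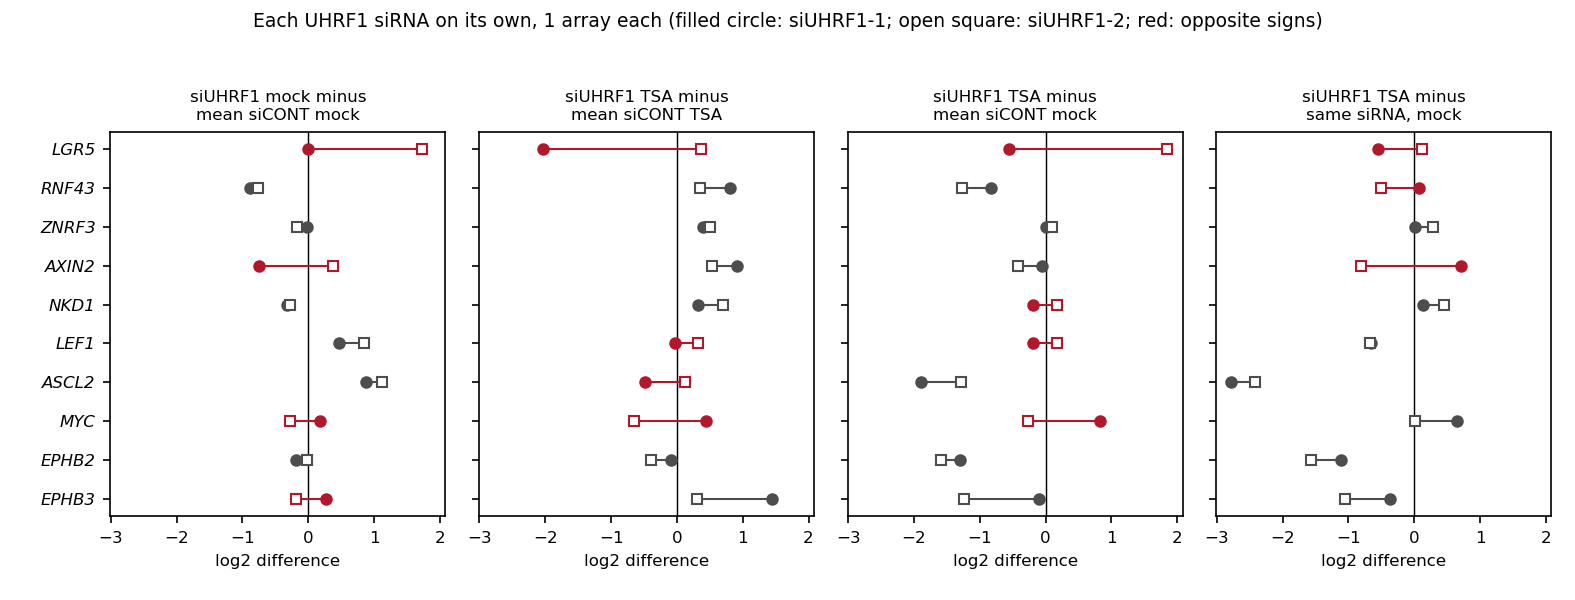
Log2 difference (x axis) of each gene with siUHRF1-1 (circle) and siUHRF1-2 (square), 1 array each, in mock, in TSA, with both treatments against siCONT mock, and from mock to TSA with the same siRNA. Red rows have opposite signs, such as LGR5 in TSA at -2.04 and 0.37. EPHB2, by its brightest probe, lay below 0 with both siRNAs in all 4 panels.

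Other genes of the pathway were read from 7 lists, chosen with earlier results of these data known. A gene dim in siCONT mock was tested against it only where the other group was bright. This favours rises in the counts and medians of a list. Between siUHRF1 TSA and siCONT mock, the comparison given for each, 14.5% of all probes tested were called higher and 11.1% lower. Among 18 receptors and ligand-handling genes, 13 were tested between siUHRF1 TSA and siCONT mock, of which 1 was called higher and 2 lower. The Wnt co-receptor LRP5 fell (log2 difference -2.08, adjusted p = 0.000314 in limma, 0.0152 in the averaged fit), as did LGR6, a relative of LGR5 (-1.22), and the Frizzled receptor FZD7 rose (1.41). Neither LGR6 nor FZD7 passed in the averaged fit of limma (adjusted p of 0.0607 and 0.0952). LRP5 and LGR6 were also called lower with TSA in siCONT cells (-1.45 and -1.42), and neither passed in the averaged fit of limma (adjusted p of 0.111 and 0.124). From siUHRF1 mock to siUHRF1 TSA both were called lower (-1.57 and -1.28). There both passed in the averaged fit of limma (adjusted p of 0.0147 and 0.0284). The list median between siUHRF1 TSA and siCONT mock was 0.29, beside -0.14 over all probes.

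Of the 15 genes of the destruction complex and its regulators, all were tested and 1 was called between siUHRF1 TSA and siCONT mock. That was APC2 (1.10), a relative of APC, which did not pass in the averaged fit of limma (adjusted p = 0.180). APC itself differed by 0.32 and CTNNB1, which encodes beta-catenin, by -0.22, and neither passed. CTNNBIP1, an inhibitor of the binding of beta-catenin to TCF, fell with TSA in siCONT cells (-1.18), but did not pass in the averaged fit of limma (adjusted p = 0.130). From siUHRF1 mock to siUHRF1 TSA it was called lower (-1.21) and passed in that fit (adjusted p = 0.0220 in limma). The list median between siUHRF1 TSA and siCONT mock was -0.38. Of 11 TCF factors and nuclear partners tested there, 3 were called higher and 0 lower, with a median of 0.12. These were the corepressors TLE2 (3.76, where 1 of the 2 siCONT mock arrays was above background) and TLE4 (1.15) and the repressive TCF factor TCF7L1, which was at least 2.20-fold higher. In the averaged fit of limma none of these 3 passed (adjusted p 0.0621 to 0.0901). From siUHRF1 mock to siUHRF1 TSA, TLE2 was called higher (3.61) and TLE3 lower (-1.20). Both passed in the averaged fit of limma (adjusted p of 0.0368 and 0.0352), with an SD of 1.77 for TLE2 between the siUHRF1 mock arrays.

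Of 22 other targets of beta-catenin, 19 were tested between siUHRF1 TSA and siCONT mock, with 4 called higher, 0 called lower and a median of 0.09, and the averaged fit called 3. CLDN1, a tight junction protein, was at least 6.48-fold higher and MMP7, a matrix protease, at least 3.10-fold higher. The Notch ligand JAG1 (1.56, adjusted p = 0.0703 in the averaged fit of limma) and the receptor MET (1.33) also rose, while CCND1 (0.04) and CD44 (-0.49) did not pass. With depletion in mock CLDN1 was at least 2.37-fold higher, MET (1.18) and CD44 (1.18) rose and JUN fell (-1.70), and none passed in the averaged fit (adjusted p 0.266 to 0.493 in limma). From siUHRF1 mock to siUHRF1 TSA 5 of 18 were called higher, where 11.7% of all probes were, and 1 lower, where 9.01% were. The fall was CD44 (-1.67, adjusted p = 0.00399 in limma, 0.0269 in the averaged fit). With TSA in siCONT cells 3 of 19 were called higher, where 10.4% of all probes were, and 1 lower, where 8.21% were. That fall was PPARD (-1.60, adjusted p = 0.00175 in limma, 0.105 in the averaged fit).

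Other crypt stem genes split. Of 15, 11 were tested between siUHRF1 TSA and siCONT mock: LRIG1, a brake on ERBB receptors, was at least 2.97-fold higher and the Polycomb protein BMI1 rose (1.81), while CDCA7 fell (-1.72). All 3 passed in the averaged fit of limma (adjusted p 0.0125 to 0.0254). The list median was -0.31. OLFM4, PROM1, PTPRO and SMOC2 were above background on no array. Of the 4 ephrin-B ligands and other EphB receptors tested, with a median of -0.26, EPHB4 fell in that comparison (-1.25), and the ligand EFNB1 fell with TSA in siCONT cells (-1.62). Neither passed in the averaged fit of limma (adjusted p of 0.0609 and 0.127).

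Genes of differentiated colon cells, which normally lie above the crypt base, were the last list. Between siUHRF1 TSA and siCONT mock, 8 of 13 tested were called higher and 2 lower, with a median of 1.56, and the averaged fit called 6 and 2. Of the 22 genes of this list, 14 were above background in a group and 9 on all arrays. Genes dim in siCONT mock entered only through the other group, which favours rises here and with depletion in mock. CDHR5, a brush border cadherin, was at least 8.61-fold higher and CHGA, a marker of enteroendocrine cells, at least 7.25-fold higher, while the goblet cell peptide TFF3 (-2.54) and CEACAM1 (-2.14) fell. From siUHRF1 mock to siUHRF1 TSA, 4 of 14 were called higher and 5 lower, with a median of -0.09, where 11.7% and 9.01% of all probes were, and the averaged fit called 3 and 4. With depletion in mock 5 of 13 were called higher and 0 lower, where 3.13% and 0.987% of all probes were, led by FABP1, a fatty acid binder of absorptive cells, at least 22.3-fold higher, and KRT20 (2.94), and none passed in the averaged fit (adjusted p 0.138 to 0.353 in limma). ASCL2 was called higher in the same comparison. In bulk RNA, fewer cells of a type and less RNA per cell cannot be told apart.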

How the data were processed

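RNA of DLD1 cells was measured on 8 single-colour Agilent arrays in 4 groups of 2, taken from the labels. Per the file headers, the authors extracted linear spot intensities with Agilent Feature Extraction 10.7.3.1 (hg19), which subtracted background without scaling 1 array to another. Their deposited series table gives an intensity per probe, which lay within 0.995 to 1.00 times the same processed signals. The study's methods name GeneSpring for the comparison. Control spots and outlier flags were left out, no spot was saturated, and 902 probes with repeated spots were averaged. The log2 intensity minus the array's 75th percentile was fitted with limma 3.58.1 in R 4.3.3 as 4 group means (4 residual degrees of freedom, 2 in the averaged fit), for 5 comparisons and their interaction. A probe entered a test if either group compared (any group, for the interaction) had it above background on its 2 arrays. P-values are two-sided, Benjamini-Hochberg adjusted over all probes tested, and a call needed an adjusted p under 0.05 and 2-fold. Array number limits the precision. The fit was also run on simulated levels with the same noise SD for every array. The real siCONT and siUHRF1 pairs differ in spread, so the simulation is no check of the calls.

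Members and lists were chosen with earlier results of these data known. All 10 members are named, each by its brightest probe and by others where they disagree, together with UHRF1 and, of each list, up to 2 of the largest called rises and falls in a comparison. MET, JAG1, TLE4, APC, CTNNB1, CCND1 and the non-leading markers were named beyond that rule after their values were seen. For LGR5 and AXIN2 the 3 nearest profiles are given. Alternatives covered background correction, scaling, the filter, averaged siCONT arrays, each array left out, a replicate block, the methods' t-test, the deposited table and the mean of a gene's probes. Array symbols were matched to RefSeq for 28174 probes (55.7%). Exon or UTR positions in hg19 were not used here.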

Additional observations from a re-analysis of the deposited data

Results flagged for a closer look

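RNF43 was picked out because its change with TSA differed between siCONT and siUHRF1 cells by the test of the difference itself. The interaction was 1.41 on the log2 scale (SE 0.24, adjusted p = 0.0332 in limma): TSA gave -1.63 in siCONT cells and -0.22 in siUHRF1 cells, where siUHRF1-1 gave 0.07 and siUHRF1-2 gave -0.51. With the siCONT arrays averaged the adjusted p of RNF43 was 0.488 in limma. With the replicate block, which gives same-numbered arrays a shared shift, it was 0.0542, and with median scaling 0.0554. Without any 1 siCONT array the estimate was 1.38 to 1.43. The call was lost in each of these fits, and without a siCONT array calls over all probes fell too. Groups of 2 arrays are too small for the test of a single array that stands apart.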

How the results depend on the processing

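The alternatives were run for 6 counts of called members and for 28 differences of members given above. Of the 554 values of these differences under an alternative, 499 kept their direction and side of the threshold, 36 no longer passed, 9 newly passed and 10 changed sign, all of the last without a call. Many of these values could hardly differ, so the 499 do not measure robustness. The deposited table holds nearly the same signals. Averaging the siCONT arrays, changing the filter or leaving out an array of a group not compared keeps the estimate as it was. With the siCONT arrays averaged, 0 members were called with depletion in mock, 0 with TSA in siCONT cells and 0 in the interaction. The methods' t-test with adjusted p called 0 with depletion in mock, 0 with both treatments and 0 with TSA in depleted cells, and it was not run for the interaction. At its unadjusted threshold it called 1, 3 and 2 in these comparisons. The study names no adjustment for its arrays. Median scaling called 0 with depletion in mock, and no filter on dim probes called 0 there and 0 in the interaction. The normexp background called 2 in the interaction, RNF43 and ASCL2. Leaving out 1 array gave 0 to 1 calls with depletion in mock, 0 to 1 with depletion in TSA and 0 to 2 in the interaction. With the replicate block the interaction had 0 calls (RNF43 adjusted p = 0.0542 in limma) and no other call changed. The numbers do not pair the groups: deviations of same-numbered arrays correlated between -0.06 and 0.07, except 0.34 between the siUHRF1 groups, which share siRNAs.

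LEF1 with both treatments changed sign to 0.24 with the percentile over detected probes, 0.23 with quantile normalization and 0.028 with the normexp background, and spanned -0.18 to 0.17 with 1 array left out. With the mean of a gene's probes, EPHB2 with depletion in mock became 0.019 and ZNRF3 with TSA in siCONT cells 0.048. With 1 array left out, RNF43 with TSA in depleted cells spanned -0.44 to 0.0062, ASCL2 with depletion in TSA -0.49 to 0.12, and the EPHB2 interaction -0.28 to 0.016. Median scaling moved the median of all probes by -0.40 with both treatments, where the percentile over detected probes moved it by 0.24. The cause of these changes was not tested. LGR5 and NKD1 had signals below the 75th percentile on every array, and 2 arrays a group limit what a test can call.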
